A study of Mus musculus with 6 samples.

Results

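The complement genes examined here are those of the 3 C1q chains (C1qa, C1qb, C1qc), the central component C3, the component C4b, factor B (Cfb), properdin (Cfp) and the anaphylatoxin receptors C3ar1 and C5ar1. They were found by their gene symbol in the platform annotation. Of these 9 genes 7 had probe sets of their own, 13 of the 45101 on the array. C4b was covered by 1 probe set that the annotation shares between C4a and C4b, and the expression of C3 was not analysed here. The arrays came from bone marrow cells of healthy C57BL/6 mice. In 3 samples the cells were transfected with a mimic of the microRNA miR-142-3p and in 3 with a control oligonucleotide, both at 100 nM with the reagent GeneSilencer. All 6 were treated 5 h later with the cytokines GM-CSF and IL-6 for 4 days, a culture that yields myeloid-derived suppressor cells (MDSCs), a mixed and immature population able to hold T cells back. The labels give neither the control oligonucleotide's sequence nor the origin of the replicates, which may be one culture or several. The p-values therefore cover the spread between these arrays alone, which may be technical.

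Complement is a cascade of blood and tissue proteins that tags microbes and dying cells. C1q starts the classical pathway when it binds antibody or altered surfaces, factor B and properdin drive the alternative pathway, and both routes meet at C3. The fragments C3a and C5a call in myeloid cells through their receptors. Most complement proteins of plasma come from the liver, whereas C1q and properdin are made mainly by myeloid cells.

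The agent under test is shown first, as the mature mouse microRNA of that name, which RefSeq lists as miR-142a-3p (GRCm38.p6, chr11:87756903-87756925, plus strand). Capitals mark the seed, bases 2 to 8, through which a microRNA pairs with its targets. No transcript sequence was searched for it.
mmu-miR-142a-3p: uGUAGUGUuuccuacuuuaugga

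The genes of the 3 C1q chains lie side by side on chromosome 4 (chr4:136880126-136898844 in GRCm38.p6), with no other annotated gene inside that span. Windows of the 250 bases before a transcript start listed by RefSeq were at hand for 6 of the 9 genes, and those of 4 genes are shown: C1qb and C1qc, whose mean log2 values were both higher with the mimic, C3ar1, which rose most, and Cfp, which fell. Capitals mark 2 motifs, searched on both strands: GAGGAA, the core bound by the myeloid factor PU.1, and AANNGAAA, the core bound by interferon regulatory factors. All 4 genes lie on the minus strand, and each window is written in the direction of its gene. That transcript start need not be the end of the annotated gene: the last 22 bases of the C1qc window lie inside the gene as annotated, as do 202 bases of the C5ar1 window, which is not shown, and 0 in the other 4.
C1qb, chr4:136886201-136886450: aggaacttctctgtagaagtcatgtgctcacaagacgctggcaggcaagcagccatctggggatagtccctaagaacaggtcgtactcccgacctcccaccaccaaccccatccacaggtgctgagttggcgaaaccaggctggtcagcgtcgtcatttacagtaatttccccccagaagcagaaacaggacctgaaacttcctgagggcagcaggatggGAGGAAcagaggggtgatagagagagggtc
C1qc, chr4:136892915-136893164: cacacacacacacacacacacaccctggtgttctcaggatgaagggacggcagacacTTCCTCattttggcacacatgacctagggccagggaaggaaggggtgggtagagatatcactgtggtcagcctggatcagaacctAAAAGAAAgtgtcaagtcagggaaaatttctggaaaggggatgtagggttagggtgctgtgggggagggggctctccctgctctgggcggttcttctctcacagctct
C3ar1, chr6:122856158-122856407: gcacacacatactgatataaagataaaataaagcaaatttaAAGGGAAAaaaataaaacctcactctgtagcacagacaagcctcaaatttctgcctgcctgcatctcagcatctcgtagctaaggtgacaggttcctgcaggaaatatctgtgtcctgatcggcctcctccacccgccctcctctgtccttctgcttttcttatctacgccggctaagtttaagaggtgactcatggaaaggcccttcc
Cfp, chrX:20931556-20931805: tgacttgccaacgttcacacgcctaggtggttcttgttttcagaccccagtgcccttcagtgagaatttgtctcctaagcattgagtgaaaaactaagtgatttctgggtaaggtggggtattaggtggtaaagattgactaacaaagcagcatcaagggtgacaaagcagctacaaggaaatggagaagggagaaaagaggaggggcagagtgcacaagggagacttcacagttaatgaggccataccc
C1qb and C1qc each held GAGGAA once, starting 30 and 193 bases before that transcript start, and no other of the 6 windows held it. Of all 32851 windows of this length 23.3% do. For C1qa, Cfb and C4b no window was at hand, so they were not searched. AANNGAAA, in 21.3% of all windows, was found once in C1qc, C3ar1 and C3, starting 108, 209 and 119 bases before it. The STAT consensus TTCNNNGAA, in 7.02% of all windows, was in none of the 6. The C/EBP consensus TTNNGNAA, in 36.8% of all windows and left in lower case, was in those of C1qc, C3 and C5ar1, and no match overlapped another motif. A match is a description of letters and shows no binding.

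Levels are deposited log2 values, in which 1 unit is a doubling. Gene-level results use the brightest probe set of each gene, by its mean over all 6 arrays of both groups. Differences are mimic minus control with the standard error of limma's fit over 18193 genes, p-values adjusted by Benjamini-Hochberg. Levels of different probe sets cannot be set against each other. Correlations between arrays ran from 0.982 to 0.996. Control array 1 stood farthest from its own group, with a mean correlation of 0.989 to the other controls against 0.993 to 0.994 for every other array within its group. MDSC markers were present: the calprotectin genes S100a9 and S100a8 averaged 12.25 and 11.96 with the mimic, and 12.21 and 11.85 in control. Nos2, which encodes an inducible enzyme of suppressor cells, lay near the floor at 0.44 with the mimic and 0.62 in control.

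With the mimic, the receptor gene C3ar1, the chain gene C1qb and the factor B gene Cfb rose, and the properdin gene Cfp fell. C3ar1 was 2.23-fold higher, C1qb 1.73-fold higher, Cfb 1.54-fold higher and Cfp 2.01-fold lower. These are 4 of the 7 measured genes, 3 higher and 1 lower, where 2.76% of all genes passed (1.17% higher, 1.59% lower). In 6 of the 7, all but C5ar1, the mimic and control arrays did not overlap, as in 22.2% of all genes. Those shares include many dim genes: 10335 of the 18193 had both group means below 3, against 0 of the 7. When only genes averaging at least 5 were tested, 641 of 4093 passed, and 5 of the 6 members tested. The median log2 fold change of the 7 was 0.39, against 0.01 over all genes tested. The calls depended on single arrays. Without control array 1, 3 members passed (C3ar1 higher, Cfp and C1qa lower), and without control array 3, 2 passed (C3ar1 and Cfp). Without mimic array 1, 2 or 3 or control array 2, limma called 0, with 5, 5, 7 and 6 members at an unadjusted p under 0.05.

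**Figure D1:**
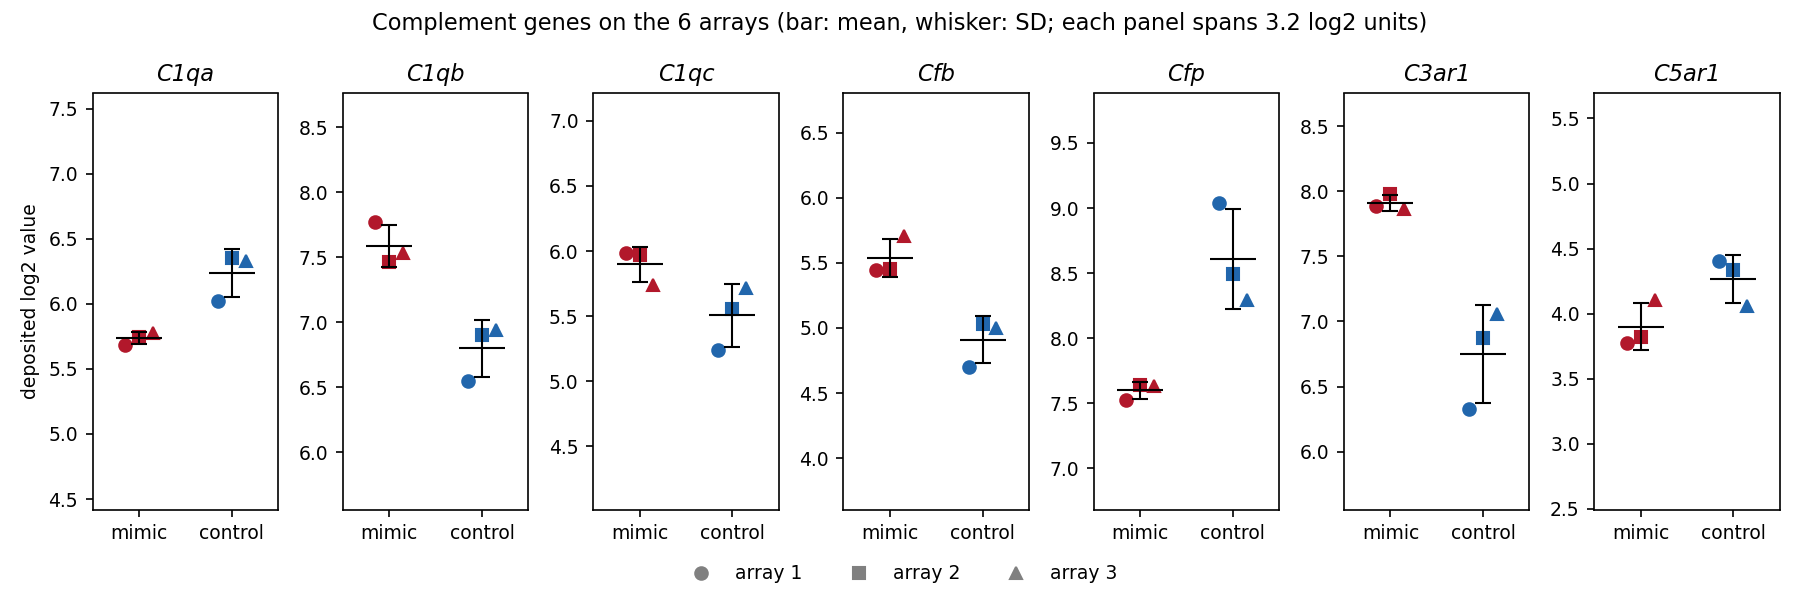
Deposited log2 values of the 7 measured complement genes, each through its brightest probe set, on the 3 mimic arrays (red) and the 3 control arrays (blue), with mean and SD. Each panel spans 3.2 log2 units, so distances compare between panels but heights do not. The mimic arrays lie above the control arrays for C1qb, C1qc, Cfb and C3ar1, below them for C1qa and Cfp, and among them for C5ar1.

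C1q is assembled from chains A, B and C in equal numbers. C1qb (Entrez gene 12260) stood at 7.77, 7.47 and 7.53 on mimic arrays 1, 2 and 3, against 6.55, 6.91 and 6.94 on control arrays 1, 2 and 3. Every mimic array exceeded every control array. The means were 7.59 ± 0.16 with the mimic and 6.80 ± 0.22 in control (SD, n = 3 each), a log2 fold change of 0.79 ± 0.14 (limma adjusted p = 0.0297). C1qb did not pass once any single array was left out, with log2 fold changes of 0.66 to 0.86 and adjusted p from 0.05003 without control array 3 and 0.0564 without control array 1 to 0.148 without mimic array 1. This value comes from the probe set 1437726_x_at, the brightest over all 6 arrays. On the control arrays alone 1417063_at was the brighter, with a mean of 6.83 against 6.80. On the mimic arrays it was the dimmer, at 7.13 against 7.59. The choice of set therefore depended on the mimic arrays, where the chosen set was high, and the call depends on that choice. The suffix x marks probe sets with probes that may also match other transcripts.

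The other C1qb probe sets gave smaller differences. The set 1434366_x_at read 7.11, 6.88 and 6.93 on the mimic arrays and 6.09, 6.59 and 6.61 on the control arrays, a log2 fold change of 0.54 ± 0.16 (limma over all probe sets, adjusted p = 0.19). The set 1417063_at, the one C1qb set without that suffix, read 7.20, 7.05 and 7.16 on the mimic arrays and 6.63, 6.96 and 6.91 on the control arrays. Its log2 fold change was 0.30 ± 0.11 (adjusted p = 0.31). In all 3 sets the mimic arrays lay above the control arrays, and none of them passed when all 45037 probe sets were tested.

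C1qc (Entrez gene 12262) read 5.98, 5.97 and 5.74 on the mimic arrays, against 5.24, 5.56 and 5.72 on the control arrays. The groups were separate by a narrow margin, since mimic array 3 and control array 3 differed by less than the SD of either group. The means were 5.90 ± 0.14 with the mimic and 5.50 ± 0.24 in control (SD, n = 3 each), a log2 fold change of 0.39 ± 0.14 that did not pass (limma adjusted p = 0.205). Without control array 1 it was 0.26.

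C1qa (Entrez gene 12259) had the opposite sign. It read 5.69, 5.75 and 5.78 on the mimic arrays, against 6.02, 6.35 and 6.33 on the control arrays. All mimic arrays were below all control arrays, with means of 5.74 ± 0.05 with the mimic and 6.24 ± 0.18 in control (SD, n = 3 each). The log2 fold change of -0.50 ± 0.11 did not pass over all genes (limma adjusted p = 0.0677). It passed without control array 1 (-0.60, adjusted p = 0.0268) and when genes averaging under 3 were not tested (adjusted p = 0.0355).

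The chains were also compared within each array, which removes anything that scales a whole array. The size of such a difference has no meaning across probe sets. Its change between the groups is the log2 fold change of one set minus that of the other. The size of that change also depended on which C1qb set was used, so it is no measure of the ratio of the chains. By probe set 1437726_x_at, C1qb minus C1qa was 2.09, 1.72 and 1.75 on the mimic arrays, against 0.52, 0.55 and 0.61 on the control arrays, a change of 1.29. By 1434366_x_at the change was 1.04 and by 1417063_at it was 0.80. For C1qc minus C1qa the values were 0.30, 0.22 and -0.04 on the mimic arrays, against -0.79, -0.79 and -0.62 on the control arrays, a change of 0.89. The groups did not overlap in any of these 4 comparisons (exact two-sided permutation p = 0.1 for each, also after adjustment over the 4), and 0.1 is the smallest p that 3 arrays against 3 allow. That outcome was fixed beforehand, since all mimic arrays were below the controls in C1qa and above them in the other sets. It adds nothing to those separations. The 3 probe sets of C1qb read the same gene and all 4 comparisons share the C1qa values, so they are not independent.

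**Figure D2:**
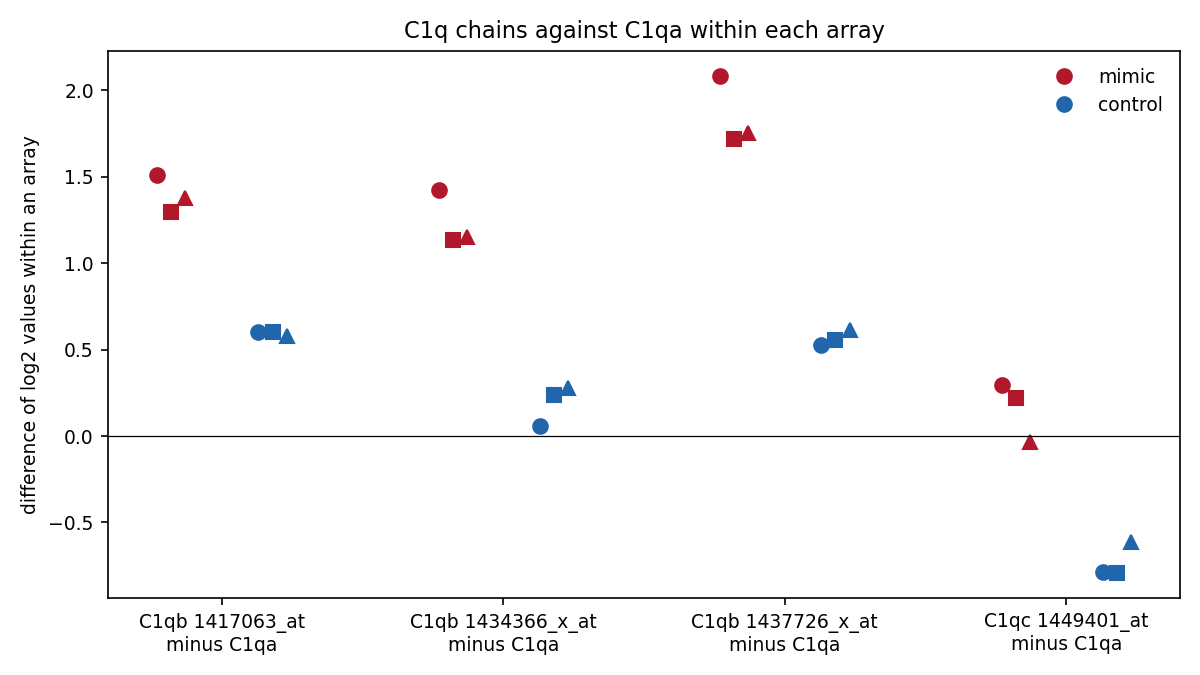
Differences of log2 values within each array between a C1qb or C1qc probe set and the C1qa probe set, mimic arrays in red and control arrays in blue, with circle, square and triangle for arrays 1, 2 and 3. The mimic arrays lie above the control arrays in each of the 4 comparisons, by 0.80 to 1.29 in the mean.

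The components of the convertases came next. Cfb (Entrez gene 14962), whose product carries the protease of the alternative pathway's C3 convertase, read 5.45, 5.46 and 5.70 on the mimic arrays, against 4.70, 5.03 and 5.00 on the control arrays. Its groups were well apart. The means were 5.53 ± 0.15 with the mimic and 4.91 ± 0.18 in control (SD, n = 3 each), a log2 fold change of 0.63 ± 0.13 (limma adjusted p = 0.046). The call was close to the threshold and was lost with any single array left out, at adjusted p from 0.0836 without control array 3 and 0.0887 without control array 1 to 0.156 without mimic array 1.

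Cfp (Entrez gene 18636) encodes properdin, which stabilises that convertase. It read 7.52, 7.64 and 7.63 on the mimic arrays, against 9.04, 8.50 and 8.29 on the control arrays. The mimic arrays lay close together and below the control arrays, which were spread out with control array 1 at the top. The means were 7.60 ± 0.06 with the mimic and 8.61 ± 0.38 in control (SD, n = 3 each), a log2 fold change of -1.01 ± 0.18 (limma adjusted p = 0.0311). Without control array 1 it was -0.79 (adjusted p = 0.0242) and without control array 3 it was -1.17 (adjusted p = 0.0308), while without mimic array 1, 2 or 3 or control array 2 it did not pass (adjusted p = 0.166, 0.117, 0.127 and 0.116). A second, dimmer probe set of Cfp, 1447537_at, lay between 2.68 and 2.79 on the mimic arrays and between 2.75 and 2.81 on the control arrays, with a log2 fold change of -0.06 ± 0.08 (adjusted p = 0.833 over all probe sets). Averaged over both sets, Cfp differed by -0.53 on the log2 scale (limma adjusted p = 0.0372).

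C4b encodes the complement component that C1 cleaves, and C4a its near-identical relative, the sex-limited protein. The probe set shared by both genes was dim. It read 2.00, 2.39 and 2.14 on the mimic arrays, against 2.38, 1.69 and 2.04 on the control arrays. The groups overlapped, and the log2 fold change of 0.14 ± 0.19 did not pass (limma over all probe sets, adjusted p = 0.82). It cannot be assigned to either gene.

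C3ar1 (Entrez gene 12267), the receptor gene for the fragment C3a, had the largest difference of the 7. It read 7.89, 7.98 and 7.86 on the mimic arrays, against 6.33, 6.87 and 7.05 on the control arrays. The mimic arrays were again close together and above the spread-out control arrays, with control array 1 at the bottom. The means were 7.91 ± 0.06 with the mimic and 6.75 ± 0.38 in control (SD, n = 3 each), a log2 fold change of 1.16 ± 0.18 (limma adjusted p = 0.0202). It held without control array 1 (0.95, adjusted p = 0.0159) and without control array 3 (1.31, adjusted p = 0.0248). Without mimic array 1, 2 or 3 or control array 2 it did not pass (adjusted p = 0.124, 0.0971, 0.0966 and 0.0875).

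Of the other C3ar1 probe sets, 1419482_at read 7.97, 8.06 and 7.93 on the mimic arrays and 5.60, 6.42 and 6.85 on the control arrays, a log2 fold change of 1.70 ± 0.28 (limma over all probe sets, adjusted p = 0.0483). The set 1419483_at, listed under the same transcript accession, read 6.54, 6.91 and 6.76 on the mimic arrays and 4.89, 6.61 and 6.91 on the control arrays. Here control array 1 alone was low and the other arrays of both groups overlapped, with a log2 fold change of 0.60 ± 0.48 (adjusted p = 0.669). With the 3 sets averaged the gene's log2 fold change was 1.15 and did not pass (adjusted p = 0.0937).

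C5ar1 (Entrez gene 12273), the receptor gene for the fragment C5a, read 3.78, 3.82 and 4.11 on the mimic arrays, against 4.41, 4.33 and 4.06 on the control arrays. Mimic array 3 lay above control array 3, so the groups overlapped. The log2 fold change was -0.36 ± 0.13 (limma adjusted p = 0.218). Its dimmer set 1422190_at read 2.60, 3.02 and 3.77 on the mimic arrays and 3.74, 4.05 and 3.79 on the control arrays, with a log2 fold change of -0.73 ± 0.27 (adjusted p = 0.304 over all probe sets). Both sets had a lower mean with the mimic, and both overlapped.

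**Figure D3:**
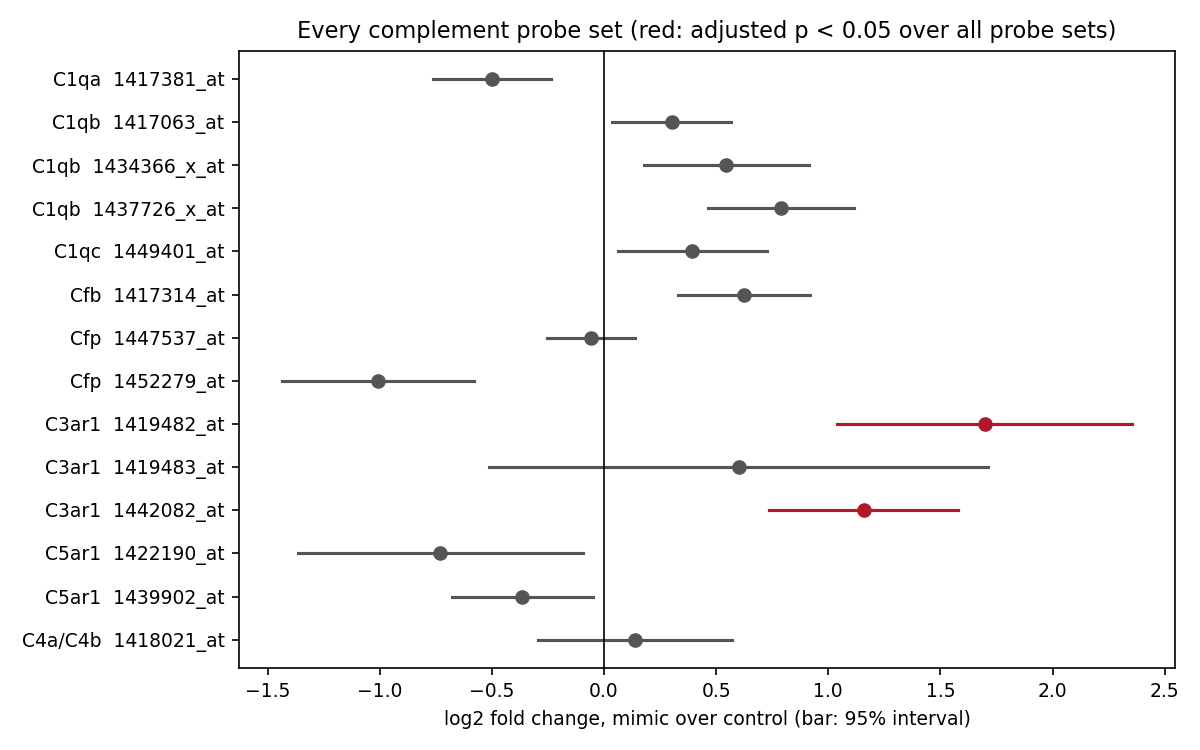
Log2 fold changes, mimic over control, of the 13 complement probe sets with 1 gene and of the set shared by C4a and C4b, with 95% intervals. The x axis is the log2 fold change, and red marks the 2 C3ar1 sets that passed an adjusted p of 0.05 over all 45037 probe sets.

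With every probe set tested on its own, 2 of the 13 passed, both of them C3ar1, where 0.897% of all probe sets passed. Groups did not overlap in 9 of the 13, against 17.5% of all probe sets. Probe sets of 1 gene share their transcript and are not independent.

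The controls were more uneven than the mimic arrays in these genes. In 6 of the 7 genes control array 1 was the control farthest from the mimic mean, and in C1qa it was the nearest. The control SD exceeded the mimic SD in each of the 7, by the widest ratios in C3ar1 and Cfp.

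Other complement genes were read from a list of 48, of which 39 were measured. Of these 1 rose, 2 fell and 36 did not pass, against the 2.76% of all genes that passed, and their median log2 fold change was 0.03. The gene that rose was Clu, which encodes clusterin, an inhibitor of the membrane attack complex. It read 5.45, 5.25 and 5.38 on the mimic arrays, against 4.58, 4.68 and 4.89 on the control arrays (log2 fold change 0.65 ± 0.11, limma adjusted p = 0.0289). On its 3 other probe sets the log2 fold change was 0.36, 0.43 and 0.71, and none of them passed over all probe sets (limma adjusted p = 0.181, 0.359 and 0.104), nor did the set used here (adjusted p = 0.0546). The Clu call was also lost with the replicate block (limma adjusted p = 0.0639) and without any one array other than control array 3 (adjusted p from 0.067 without control array 1, 0.0854 without mimic array 2, 0.119 without mimic array 3 and 0.128 without control array 2 to 0.151 without mimic array 1). The genes that fell encode the alpha chains of the complement receptors CR3 and CR4, which bind a fragment of C3 on tagged particles.

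Itgam, the CR3 alpha chain gene, read 5.32, 5.33 and 5.58 on the mimic arrays, against 6.22, 6.84 and 6.74 on the control arrays (log2 fold change -1.19 ± 0.17, limma adjusted p = 0.017). Itgax, the CR4 alpha chain gene, read 4.42, 4.34 and 4.27 on the mimic arrays, against 7.84, 6.96 and 6.62 on the control arrays (-2.80 ± 0.27, adjusted p = 0.00673). Both genes had separate groups. Without mimic array 1, mimic array 3 or control array 2 neither passed (limma adjusted p = 0.119, 0.0713 and 0.0875 for Itgam, 0.0771, 0.0576 and 0.0581 for Itgax), and without mimic array 2 Itgam did not (adjusted p = 0.085). Their shared beta chain gene, Itgb2, averaged 9.29 ± 0.05 with the mimic and 9.66 ± 0.09 in control (SD, n = 3 each) and did not pass (-0.37 ± 0.09, adjusted p = 0.0911). Of the 9 measured genes for receptors and C1q-binding proteins, 0 rose and 2 fell, against 1.17% and 1.59% of all genes.

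Of 11 genes that start or carry the early cascade 0 passed by limma (2 at an unadjusted p under 0.05), and 10 had both group means below 3. The exception was Fcnb, the gene of the myeloid lectin ficolin B, at 6.08, 5.98 and 5.85 on the mimic arrays and 4.71, 5.37 and 5.56 on the control arrays (0.76 ± 0.21, limma adjusted p = 0.114). All 6 genes of the terminal components measured lay below 3 in both groups, 5 of them below 1, and 0 passed by limma (1 at an unadjusted p under 0.05). The largest difference among them was in C8g, at 0.99 with the mimic and 0.75 in control (0.25 ± 0.10, adjusted p = 0.26). Of 13 regulator genes 1 rose, Clu, and 0 fell, against 1.17% and 1.59% of all genes. The values of the dim genes lie near the floor of the deposited values.

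**Figure D4:**
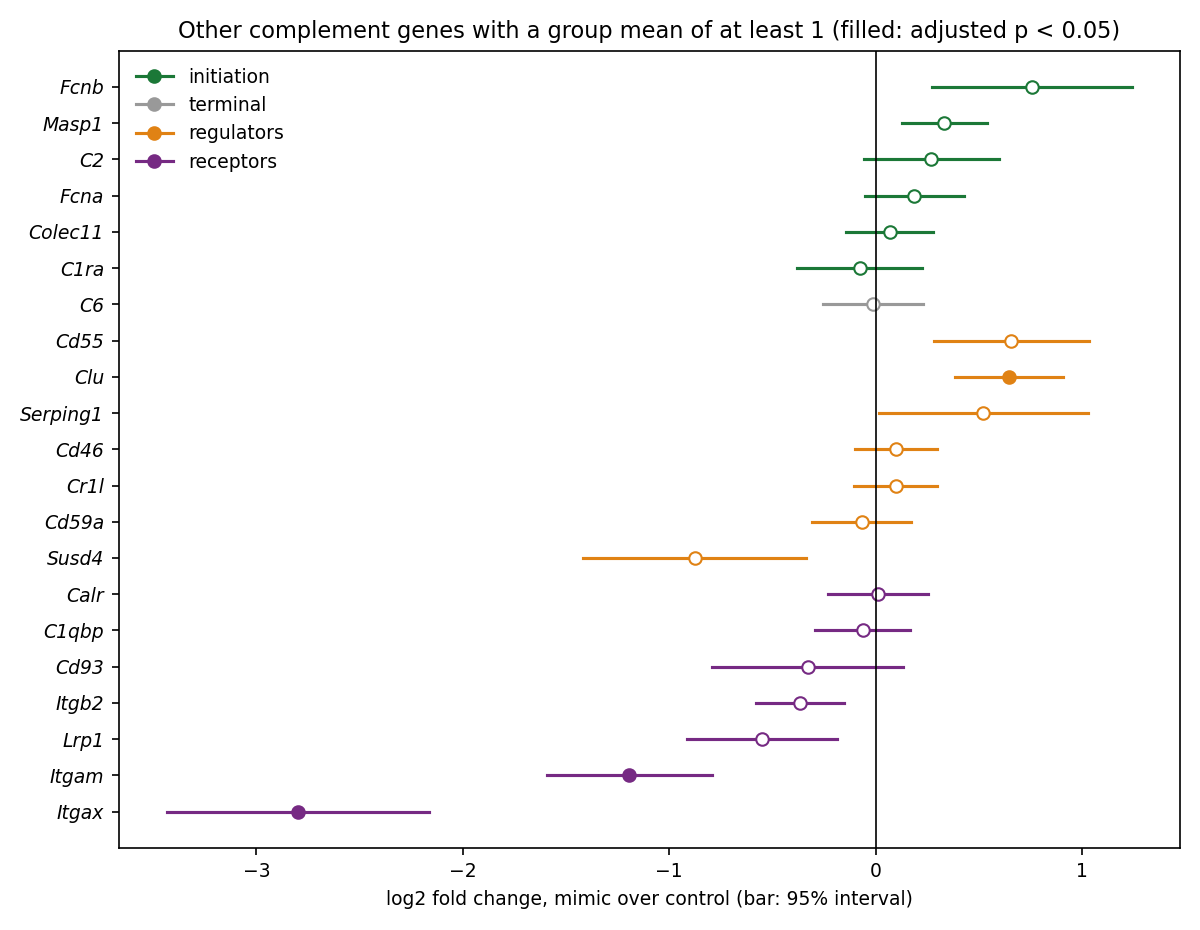
Log2 fold changes, mimic over control, with 95% intervals, of the 21 other complement genes whose higher group mean was at least 1, ordered by role. Filled points passed an adjusted p of 0.05: Clu lies above 0, and Itgam and Itgax lie below 0.

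The genes most like each member were sought among 338 genes averaging at least 5 and with a range of at least 1, by Pearson's r over the 6 arrays. The arrays of both groups enter, so r carries the group difference as well as the spread within groups. For Cfp they were Sh3pxd2b, an adaptor protein gene (r = 0.9998), and H2-Eb1, a class II MHC chain gene (r = 0.998). For C3ar1 they were Gbp7, of the interferon-induced guanylate-binding proteins (r = 0.9996), and Ms4a6d (r = 0.999). For C1qa they were Itgam (r = 0.991) and the collagenase gene Mmp8 (r = 0.981), for C1qb the interferon-inducible GTPase gene Irgm1 (r = 0.992) and Rgs18 (r = 0.985). For Cfb they were the lysosomal protease gene Lgmn (r = 0.996) and Slco4a1 (r = 0.988), for C1qc Rgcc and Tor1aip2 (r = 0.993 for each), and for C5ar1 Got1 (r = 0.945) and Cd9 (r = 0.941).

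Markers of the cell types that the culture could hold were read beside these results. In bulk samples, fewer cells of a type and less RNA per cell cannot be told apart. Sums below add the unlogged values of a list on each array. The counts of each marker list stand beside 1.17% of all genes that rose and 1.59% that fell. When only genes averaging at least 5 were tested, 291 of 4093 rose and 350 fell. Of 12 macrophage markers 2 rose and 2 fell. Lyz2 (-0.53 ± 0.09) and Csf1r (-0.57 ± 0.10) fell, Fcgr1 (0.84 ± 0.11) and Cd5l (1.16 ± 0.15) rose, and the phagocyte marker Cd68 averaged 8.40 with the mimic and 8.37 in control. Directions differed within this list, with 8 means higher and 4 lower with the mimic and a median log2 fold change of 0.03. Its sum, in which Lyz2 was the brightest gene, was 3049 to 3285 on the mimic arrays and 4048 to 4118 on the control arrays. Cd163 and Timd4 lay near the floor. Of 10 dendritic cell markers 0 rose and 6 fell, with sums of 504.2 to 519 on the mimic arrays and 1292 to 2905 on the control arrays. Itgax is also in that list. Of 11 neutrophil markers 1 rose and 1 fell, with sums of 18311 to 18574 on the mimic arrays and 13704 to 16999 on the control arrays. The list was mixed: Elane rose (0.98 ± 0.17), Mmp8 fell (-0.95 ± 0.14), and 8 means were higher and 3 lower with the mimic.

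Of 6 mast cell and basophil markers 2 rose and 0 fell (sums of 715.1 to 796.2 with the mimic and 309.1 to 568.8 in control). Of 5 B cell markers 0 rose and 1 fell (61.5 to 72.7 with the mimic and 77.8 to 116 in control), with Vpreb1 near the floor. Of 6 T and NK cell markers 0 passed by limma and 1 had an unadjusted p under 0.05 (sums of 41.3 to 47.0 with the mimic and 19.0 to 29.3 in control), with Cd3g and Ncr1 near the floor. That one was Nkg7, a gene of cytotoxic granules, at 4.92 with the mimic and 3.29 in control (1.63 ± 0.34, limma adjusted p = 0.0532), and the other 5 summed to 13.6 to 13.9 with the mimic and 13.0 to 14.8 in control. Of 8 stromal cell markers 0 rose and 2 fell (35.2 to 42.5 with the mimic and 54.6 to 69.8 in control), with Pdgfra, Pdgfrb and Lum near the floor. Of 7 measured MDSC markers 0 rose and 1 fell, Itgam (sums of 9004 to 9055 with the mimic and 8383 to 8805 in control). The brightest genes of that list, S100a9 and S100a8, are also in the neutrophil list. Arg1 averaged 4.65 with the mimic and 3.31 in control, with separate groups, and did not pass (1.34 ± 0.42, limma adjusted p = 0.148). The part of any of these cell types in the complement results was not tested.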

How the data were processed

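Affymetrix MOE430 2.0 arrays were hybridised with labelled RNA, per the labels' protocols. The deposited table holds 1 log2 value per probe set and array. The submitters' processing notes name RMA and affy, with versions, probe set definitions, filters and centring not given in the sources used here. Base 2 was inferred from RMA and the range of the values (-0.39 to 12.3). Of these, 52.6% lie below 1, near the floor. The values were used as deposited.

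Arrays were grouped by the stated treatment and numbered as in their titles. Of 45101 probe sets, 34945 had 1 gene symbol, updated through gene identifiers to RefSeq names where they matched (34741). The brightest per gene (18193 genes) was fitted in R 4.3.3 by limma 3.58.1, using lmFit and eBayes without covariates and two-sided p-values adjusted over all genes at 0.05, and the method was tested on simulated data. All probe sets but the 64 Affymetrix controls were also fitted together. The number of arrays limits the precision. Member genes, lists, the rule for named genes and the motifs were chosen with earlier results of these data known. Named were all members, other complement genes that passed or, in a subgroup without one, the one with the largest difference, the 2 genes most like each member, and up to 3 of the brightest genes of each marker list. Fcgr1, Cd5l, Nkg7, Elane, Arg1, the marker Mmp8 and the near-floor markers were named after their values were seen. Alternatives were a replicate block, leaving out single arrays, 2 filters on dim genes, 2 other ways to use probe sets, a trended robust variance, array weights and 2 further scalings.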

Additional observations from a re-analysis of the deposited data

How the results depend on the processing

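No member's log2 fold change turned its sign in the 15 alternatives run, but 5 of these keep the fold by construction and separate groups, in all members but C5ar1, fix its sign when an array is left out. Apart from leaving out arrays, 4 could have moved the fold: array weights, both scalings and, for genes with several probe sets, averaging those. Array weights, like the leave-outs, could have turned the sign of C5ar1 alone. Averaging could not turn C1qb, whose 3 sets were each separate in the same direction. A filter at a mean log2 of 5 removed C5ar1. The number of members that passed, 4 as reported, was 0 to 3 with 1 array left out, 1 with the replicate block (C3ar1, limma adjusted p = 0.0289), 2 with probe sets averaged per gene (Cfb and Cfp) and 1 with every probe set on its own (C3ar1). It was 5, with C1qa as the fifth, with either filter on dim genes, the trended robust variance or array weights. C3ar1 passed in 10 of the 15 alternatives (adjusted p from 0.0040 to 0.124), Cfp in 9, Cfb in 7, C1qb in 6, C1qa in 5 and C1qc and C5ar1 in 0.

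Among the 39 other complement genes measured, 3 passed as reported, 0 to 3 with 1 array left out and 8 with array weights. Filters at a mean log2 of 3 and 5 left 11 and 10 of these genes to test, of which 5 and 6 passed. Under the same filters 708 of 7662 and 641 of 4093 of all genes passed. Over all genes, 503 passed as reported, 0 to 413 with 1 array left out, 314 with the replicate block and 1047 with array weights. The count of 0 arose without mimic array 1, mimic array 3 or control array 2, where limma gave 2343, 2746 and 2564 genes at an unadjusted p under 0.05. A further quantile normalisation gave 322 higher and 290 lower, against 213 and 290 as reported. The deviations of same-numbered arrays correlated at r = -0.10, 0.25 and -0.19 for numbers 1, 2 and 3. Not every pair exceeded 0.1, so the numbers were not taken to pair the samples. The cause of these changes was not tested, beyond the fewer genes tested under the filters. Without detection calls, signal over background is unknown.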
